A study of Gallus gallus with 3 samples.

Results

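In chick somites, 199 transcripts were lower in both libraries made from injected somites than in the library made from non-injected somites, and stood at like levels in the 2 injected libraries. They were chosen from the 10844 transcripts that averaged at least 5 CPM (read counts divided by library size, with the TMM method setting the sizes) of 15878 listed. The non-injected level of a member had to exceed each injected level by at least 1.5-fold, and the injected libraries had to lie less than 1.5-fold apart, with 1 CPM added to every level. The levels themselves chose the members, so every ratio to the non-injected library below is a description and carries no test.

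Somites are paired blocks of mesoderm beside the neural tube. They form the dermomyotome, the myotome that gives skeletal muscle, and the sclerotome that gives the vertebrae and ribs. The microRNA miR-206 is made in the myotome and lowers the output of its target messenger RNAs, and an antagomiR is a modified antisense strand that pairs with a microRNA and blocks it. A scrambled antagomiR has the same chemistry without the matching sequence, so a transcript at a like level after either oligonucleotide is one for which the scrambled and the miR-206 sequence gave similar readings.

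All 3 libraries came from Gallus gallus somites at Hamburger-Hamilton stages 14 to 16, with 1 library from somites that received the miR-206 antagomiR, 1 from somites that received the scrambled antagomiR, and 1 from somites on the opposite side that were not injected. No genotype or strain is given in the labels, nor which injected embryos supplied the opposite side, nor how many embryos were pooled. The library totals were 16496794 counts with antagomiR-206, 20176114 with scrambled oligonucleotide and 18332350 without injection. With 1 library per group there is no replicate error, and whether any difference exceeds the variation between embryos was not measurable here. In bulk tissue, fewer cells of a type and less RNA per cell cannot be told apart.

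The transcripts are listed by Ensembl chicken identifiers without gene names. None of the 199 members (0 of 15878 identifiers in all) matched the RefSeq gene table used here, so neither gene names, roles and positions nor a check of the tissue against its marker genes is given. The 2 members with the largest drops are named by identifier. The others are called by their rank, which orders the members by the smaller of their 2 drops.

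Most members came in through a modest reduction in both injected libraries, and the rule required the 2 injected levels to be similar. The median log2 ratio of (CPM + 1) was -0.91 for antagomiR-206 over non-injected, or 0.532 times the non-injected level, against a median of 0.01 over all 10844 transcripts compared. For scrambled over non-injected it was -0.76, or 0.592 times, against 0.02 over all. The middle of the members, from the lower to the upper quartile, ran from -1.11 to -0.77 for antagomiR-206 and from -0.86 to -0.65 for scrambled. Over all transcripts compared, 11.0% lay 1.5-fold or more below non-injected with antagomiR-206 and 2.9% did so with scrambled, which is the background that the rule drew on. Of the 1195 and 315 transcripts concerned, 960 were past 1.5-fold in the antagomiR-206 library alone, 80 in the scrambled library alone and 235 in both.

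Of those 235, 36 were left out because the injected libraries were at least 1.5-fold apart. In 35 of the 36 the antagomiR-206 library was the lower one, and in 1 the scrambled library was. The remaining 199 are the members.

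**Figure D1:**
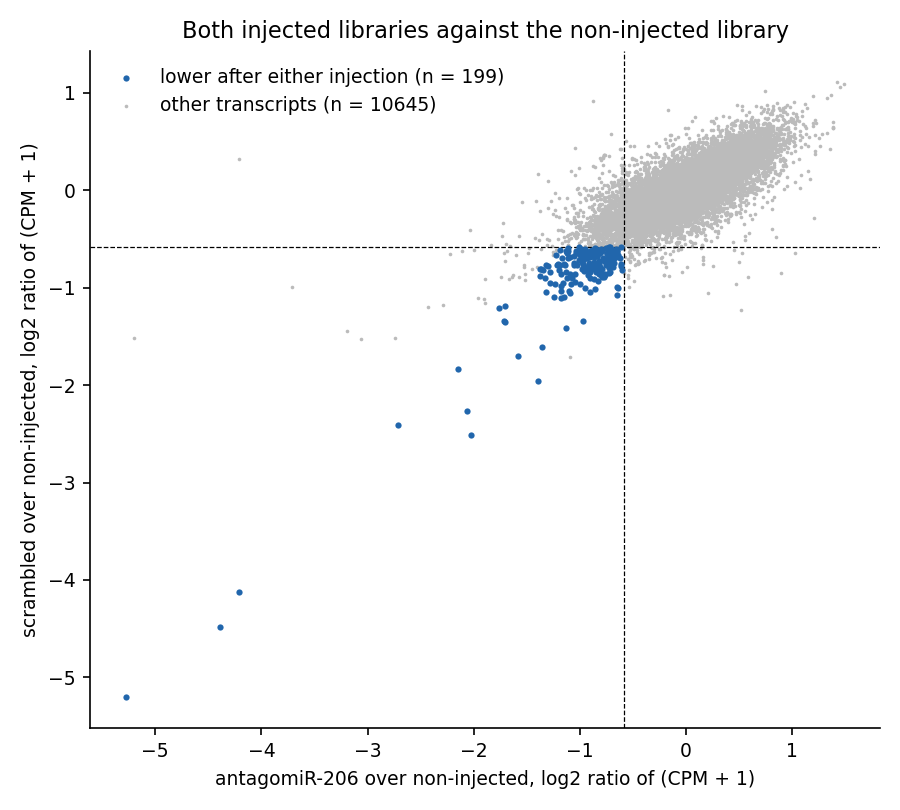
Log2 ratio of (CPM + 1) of antagomiR-206 over non-injected (horizontal) and of scrambled over non-injected (vertical), 1 point per transcript, with the 199 members in blue and the 10645 other transcripts in grey. Dashed lines mark 1.5-fold lower. For 177 members the smaller of the 2 drops lies between 1.5- and 2-fold, while 3 lie below -4 on both axes. Both axes share the non-injected library, so the slope of the cloud is no result.

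At a 2-fold limit, with 1 CPM added, the members split by library. With antagomiR-206, 68 of 199 members were 2-fold lower or more, where 1.82% of all transcripts compared were, and with scrambled 28 were, against 0.387% of all. Both libraries were past 2-fold for 22 members, antagomiR-206 alone for 46, scrambled alone for 6 and neither for 125. Of all transcripts compared, members included, 32 (0.295%) were past 2-fold in both. The rule used these same ratios, so nothing is read from the gap to the background.

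Larger drops were few. At least 3-fold lower were 11 members with antagomiR-206, where 40 of all transcripts compared (0.369%) were, and 10 members with scrambled, where 11 of all (0.101%) were. Both libraries were past 3-fold for 7 members, past 4-fold for 6 and past 8-fold for 3, which are 0.0646%, 0.0553% and 0.0277% of all compared. All 7, 6 and 3 transcripts past these limits in both libraries, out of the whole table of 10844, were members. The rule used these same ratios, so nothing is read from that.

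The first 3 members were nearly absent after either injection. ENSGALT00000019056 had 0 counts in the antagomiR-206 library and 1 count in the scrambled library, against 660 counts in non-injected somites. Those counts are 0, 0.050 and 37.6 CPM. At the 3 counts that a reading of 0 was taken to allow, antagomiR-206 would be 217-fold lower. That figure takes the 660 counts as exact and is no 95% limit. The transcript's single scrambled count gives a level 756-fold lower, with an exact (Clopper-Pearson) 95% interval of 135 to 29889 that covers counting error only. The width of that interval comes from the single count.

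ENSGALT00000026601 had 14 counts in the antagomiR-206 library and 14 in the scrambled library, against 646 non-injected, or 0.808, 0.697 and 36.8 CPM. The drop was 45.6-fold for antagomiR-206 (exact 95% interval 27.0 to 83.8) and 52.8-fold for scrambled (31.3 to 97.2). The 2 injected readings lay within counting error of each other, and the non-injected reading lay far above both. The member of rank 3 had 3 counts with antagomiR-206 and 5 with scrambled, against 364 in the non-injected library. These 3 members were the only ones of 199, and the only ones of 10844 transcripts compared, under 1 CPM in both injected libraries. A transcript that low in both reaches the mean of 5 CPM only through its non-injected level. The filter and the rule thus bear on this count, and it is a description.

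Ranks 4 to 10 were low to moderate transcripts, with drops between 2.82-fold and 10.9-fold in plain CPM. The member of rank 4 had 1.27 CPM in the antagomiR-206 library and 1.79 CPM in the scrambled library, against 13.9 CPM non-injected. The drop was 10.9-fold with antagomiR-206 (exact 95% interval 7.04 to 17.7) and 7.73-fold with scrambled (5.43 to 11.3). Both injected levels were low, and the scrambled one was the higher.

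Ranks 5 and 6 carry consecutive identifier numbers. Rank 5 had 8.72 CPM in the antagomiR-206 library and 7.47 CPM in the scrambled library, against 39.7 CPM in the non-injected library. Rank 6 had 18.8 CPM in the antagomiR-206 library and 13.0 CPM in the scrambled library, against 79.3 CPM in the non-injected library. Both had the scrambled library lowest, which was the less common order among the members. Whether the pair belongs to 1 gene cannot be read from the numbers.

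Ranks 7 to 10 stayed under 24 CPM in every library. Rank 7 had 3.29 CPM with antagomiR-206 and 4.33 CPM with scrambled, against 18.0 CPM in the non-injected library. Rank 8 had 4.27 and 3.83 CPM in that order, against 14.8 CPM non-injected. Rank 9 had 8.37 and 5.33 CPM, against 23.7 CPM non-injected. For rank 9 the injected libraries lay near the allowed limit of 1.5-fold apart, at a log2 ratio of 0.57 for antagomiR-206 over scrambled. Rank 10 had 5.95 CPM with antagomiR-206 and 4.83 CPM with scrambled, against 16.8 CPM non-injected. Of the first 10 members, 6 had antagomiR-206 above scrambled.

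**Figure D2:**
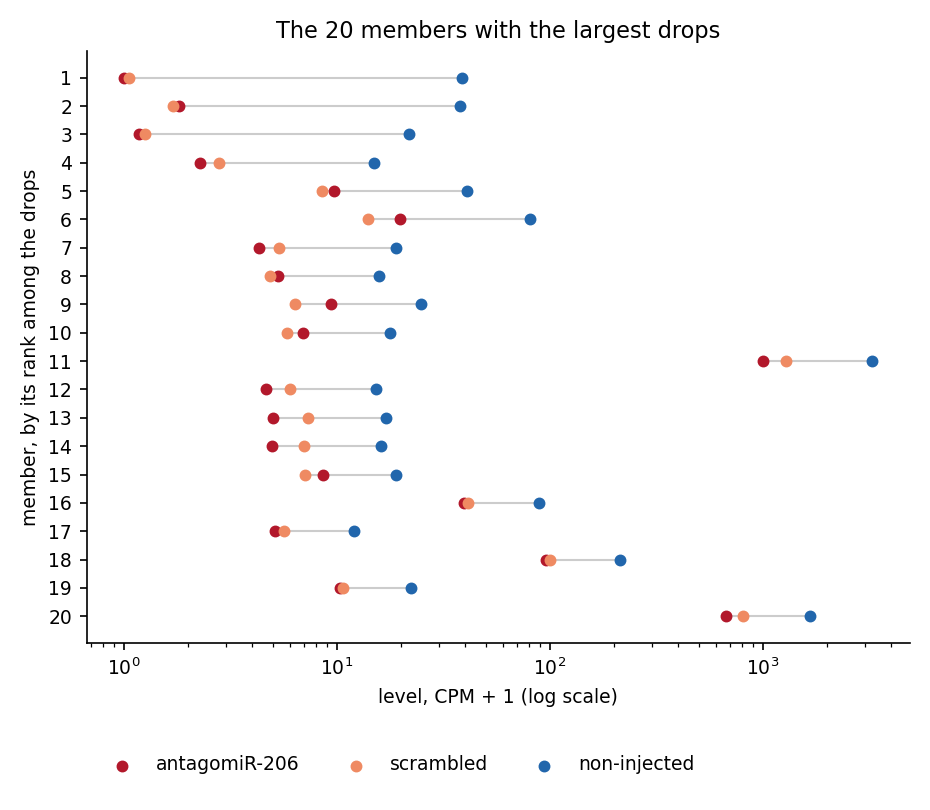
Level of the 20 members with the largest drops, as CPM + 1 on a log axis, with 1 row per member in rank order and 1 point per library. The non-injected point lies to the right in every row and the injected points lie close together, both by construction. Rows 11, 18 and 20 are abundant transcripts, at 1001, 95.1 and 666 CPM in the antagomiR-206 library.

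Below the first 10, the drops with 1 CPM added passed 2-fold in both libraries down to rank 22. Rank 12 had 3.64 CPM in the antagomiR-206 library and 5.03 CPM in the scrambled library, against 14.3 CPM in the non-injected library. Rank 16 had 38.4 CPM with antagomiR-206 and 40.4 CPM with scrambled, against 88.1 CPM non-injected. Rank 18 had 95.1 CPM with antagomiR-206 and 99.3 CPM with scrambled, against 213 CPM non-injected. In ranks 16 and 18 the injected readings were almost equal, and in rank 12 the antagomiR-206 reading was the lower. With 1 CPM added, the other 177 members were between 1.5- and 2-fold lower in the library with the smaller drop, and some low ones among them passed 2-fold in plain CPM.

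A few abundant transcripts carried most of the RNA in the group. Together the 199 members took 1.88% of the counts in the antagomiR-206 library (95% Wilson interval 1.878 to 1.891) and 2.08% in the scrambled library (2.069 to 2.081), against 3.54% in the non-injected library (3.536 to 3.553). In CPM the sums were 17944, 20851 and 37044 in that order. The 10 most abundant members in the non-injected library, a list made after the values were seen, held 74.5% of the members' non-injected counts, and the most abundant held 14.5%. Without those 10, the rest took 0.519% of the antagomiR-206 counts and 0.545% of the scrambled counts, against 0.903% of the non-injected counts.

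The most abundant member, of rank 29, had 2206 CPM in the antagomiR-206 library and 2773 CPM in the scrambled library, against 5367 CPM non-injected. Its level was 2.43-fold lower with antagomiR-206 and 1.94-fold lower with scrambled. Next came rank 41, at 1782 CPM with antagomiR-206 and 2221 CPM with scrambled, against 4031 CPM non-injected. For both, the scrambled library lay between the other 2 and closer to antagomiR-206.

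Rank 11 combined abundance with a large drop. It had 17345 counts in the antagomiR-206 library and 25700 in the scrambled library, against 57205 non-injected, or 1001, 1280 and 3261 CPM. The drop was 3.26-fold with antagomiR-206 (exact 95% interval 3.20 to 3.31) and 2.55-fold with scrambled (2.51 to 2.59). Counting error was thus small beside the drop. Rank 20 had 666 CPM with antagomiR-206 and 805 CPM with scrambled, against 1661 CPM non-injected.

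Ranks 138 and 139 were listed under different identifiers with almost equal counts. Rank 139 had 25546 counts in the antagomiR-206 library and 35824 in the scrambled library, against 49305 in the non-injected library, and the levels of rank 138 were the same to 4 digits: 1475, 1784 and 2811 CPM. Without rank 139 the members took 1.73% of the antagomiR-206 counts and 1.90% of the scrambled counts, against 3.28% of the non-injected counts. Among the 55 members with at least 1000 non-injected counts, these 2 were the only ones within 1% of another transcript in all 3 libraries, while 177 of the 3829 transcripts examined in the same way were. How reads were assigned to overlapping transcripts is not given in the sources used here, so 199 identifiers may be fewer separate units.

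Of the other abundant members, rank 137 had 1986 CPM with antagomiR-206 and 2114 CPM with scrambled, against 3336 CPM non-injected, and rank 93 had 1277 and 1516 CPM, against 2519 CPM non-injected. Rank 159, at 651 CPM with antagomiR-206 and 621 CPM with scrambled, against 1006 CPM non-injected, and rank 99, at 485 and 473 CPM, against 799 CPM non-injected, were the only ones of the 10 with antagomiR-206 above scrambled.

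**Figure D3:**
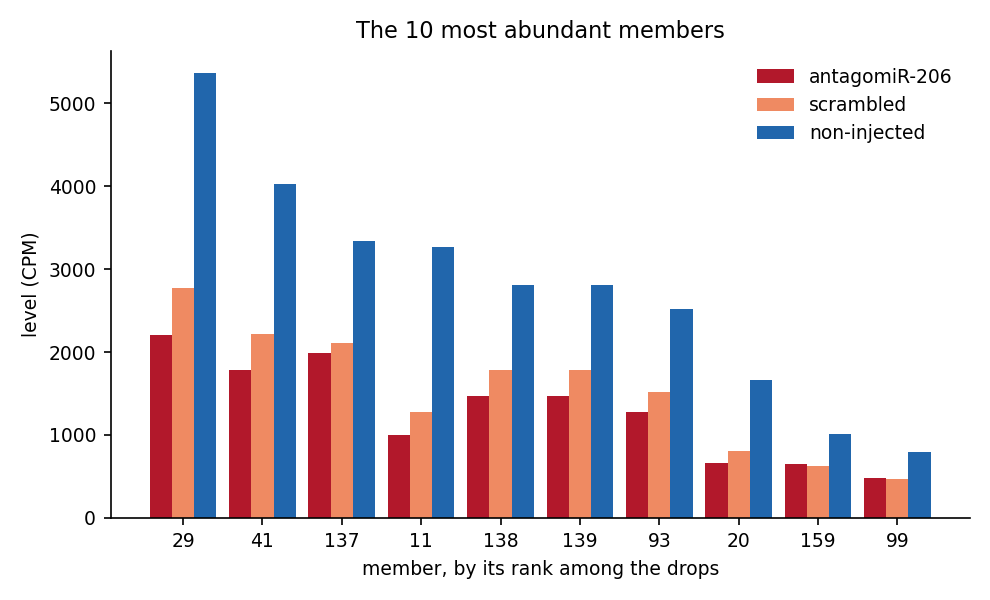
Level in CPM of the 10 most abundant members, with 1 bar per library and the members labelled by rank. The non-injected bar is the tallest in each group by construction, and the antagomiR-206 bar is the shortest in 8 of the 10.

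The top of the abundance scale was examined next. Of the 108 transcripts with at least 1000 CPM in the non-injected library, 9 were members (8.33%), against 1.84% of all transcripts compared. The non-injected level both drew that line and chose the members, so the share is given as a description. Members were also 8 of the 100 most abundant non-injected transcripts. Those 8 took 1.246% of the antagomiR-206 counts and 1.42% of the scrambled counts, against 2.47% of the non-injected counts. The other transcripts of the 100 took 17.6% of the antagomiR-206 counts and 19.4% of the scrambled counts, against 21.1% of the non-injected counts. The non-injected counts alone chose the 100, which favours a higher share in that library, so nothing is read from these differences.

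By number, most members lay in the lower 5 deciles of mean level over the 3 libraries. The rule holds both injected levels below the non-injected one, which lowers the injected medians and the mean levels of the members by construction. Their median level was 13.0 CPM in the antagomiR-206 library and 14.7 CPM in the scrambled library, against 27.2 CPM in the non-injected library, where the 10844 transcripts compared had medians of 37.2, 38.1 and 36.6 CPM. Under 5 CPM in the antagomiR-206 library were 37 of the 199, where 235 of the 10844 compared were. Under 5 CPM in the scrambled library were 29, where 155 of all compared were. The lowest decile of mean level, from 5.00 to 8.70 CPM, held 48 members, or 4.42% of its transcripts. The share was 2.77% in the second decile, 0.461% in the eighth and 1.29% in the tenth. The lower 5 deciles held 138 members and the upper 5 held 61.

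Over the 10 deciles the median log2 ratio of the members ran from -1.02 to -0.79 for antagomiR-206 and from -0.83 to -0.65 for scrambled, both over non-injected. For antagomiR-206 the medians lay between -1.02 and -0.91 in the lower 5 deciles. They lay between -0.87 and -0.79 in deciles 6 to 9, of which decile 8 held 5 members. In the lowest decile the medians were -0.97 for antagomiR-206 and -0.77 for scrambled. In the highest decile they were -0.93 and -0.74. The lowest non-injected count of a member was 125, and the filter and the rule keep that count from being small. In plain CPM, the exact 95% interval of the ratio lay wholly past 1.5-fold in both comparisons for 87 of 199 members. For the others it reached below 1.5-fold in at least 1 comparison. The rule set its limit with 1 CPM added, which makes the ratios of low members smaller. The 87 are thus not measured against the limit of the rule itself. Rank 1, with 0 antagomiR-206 counts and so no interval in that comparison, was counted among them. The rule used these ratios, and the intervals were not counted over all transcripts compared, so nothing is read from the 87.

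**Figure D4:**
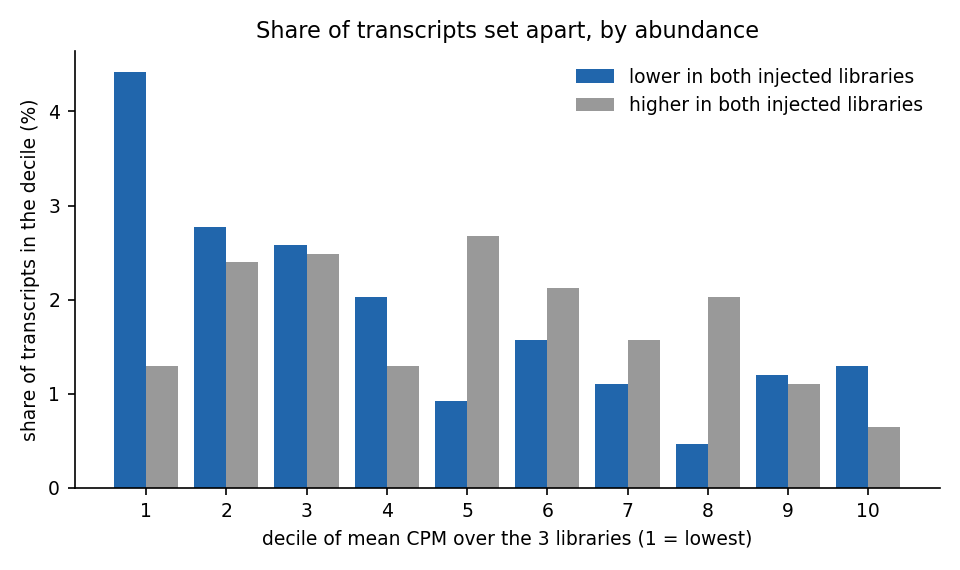
Share of the transcripts in each decile of mean CPM that were lower (blue) or higher (grey) in both injected libraries under the same thresholds. The blue share is highest in the lowest decile, at 4.42%, and the grey share there is 1.29%. The mean CPM includes the injected levels that the rule used, so the shares by decile are a description.

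The opposite pattern was about as frequent. The 199 members were 1.84% of the transcripts compared, and under the mirrored rule 191 transcripts, or 1.76%, were higher in both injected libraries than in the non-injected library. The mirrored set took 1.23% of the antagomiR-206 counts and 1.04% of the scrambled counts, against 0.611% of the non-injected counts. The members took a larger part in each library. Without their 10 most abundant, the members took 0.519% of the antagomiR-206, 0.545% of the scrambled and 0.903% of the non-injected counts. In the non-injected library that was still above the part of the mirrored set. No abundant transcripts were left out of the mirrored set, so the 2 sets are not compared on equal terms here. The median of the mean level over the 3 libraries was 33.2 CPM in the mirrored set and 17.4 CPM among the members. The members' log2 ratios over non-injected reached -5.27 for antagomiR-206 and -5.20 for scrambled, and those of the mirrored set reached 1.49 and 1.12.

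The same thresholds set the antagomiR-206 library below the other 2 for 248 transcripts and above them for 94, and the scrambled library below for 20 and above for 5. No replicate shows how far such numbers vary. The balance of members and mirrored set depends on the scaling between libraries. Scaled by total counts, the members numbered 138 and the mirrored set 316, and with upper quartile scaling the numbers were 241 and 148.

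Within the members, the antagomiR-206 library was more often the lower of the 2 injected ones. It was lower than scrambled for 157 of 199 members (78.9%), and higher for 42. Over all transcripts compared the share was 50.6%, which is no baseline for the members. The rule used both injected levels, and its 1.5-fold limit passed far fewer transcripts in the scrambled library than in the antagomiR-206 library, so it favours members with antagomiR-206 the lower. The median log2 ratio of antagomiR-206 over scrambled was -0.15 for the members, or 0.900 times, and -0.01 for all transcripts compared.

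The gap between the injected libraries was small for most members. At least 1.2-fold lower with antagomiR-206 than with scrambled were 67 members (33.7%; of all compared, 20.1%), and at least 1.2-fold higher were 7 (3.52%; of all compared, 16.0%). For 77 members the exact 95% interval placed antagomiR-206 below scrambled, for 6 above, and for 116 it included equal levels. The intervals were not counted over all transcripts compared, and the rule favours the first order, so nothing is read from that split. Of the 191 transcripts of the mirrored set, 153 were higher with antagomiR-206 than with scrambled. In both sets the antagomiR-206 library thus lay farther from the non-injected library for most transcripts. Over all transcripts compared, too, the log2 ratios to non-injected spread more widely for antagomiR-206 (SD over transcripts 0.48) than for scrambled (SD 0.32). With total counts the antagomiR-206 library was the lower for 92 of 138 members (66.7%), where 40.8% of all transcripts compared were.

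**Figure D5:**
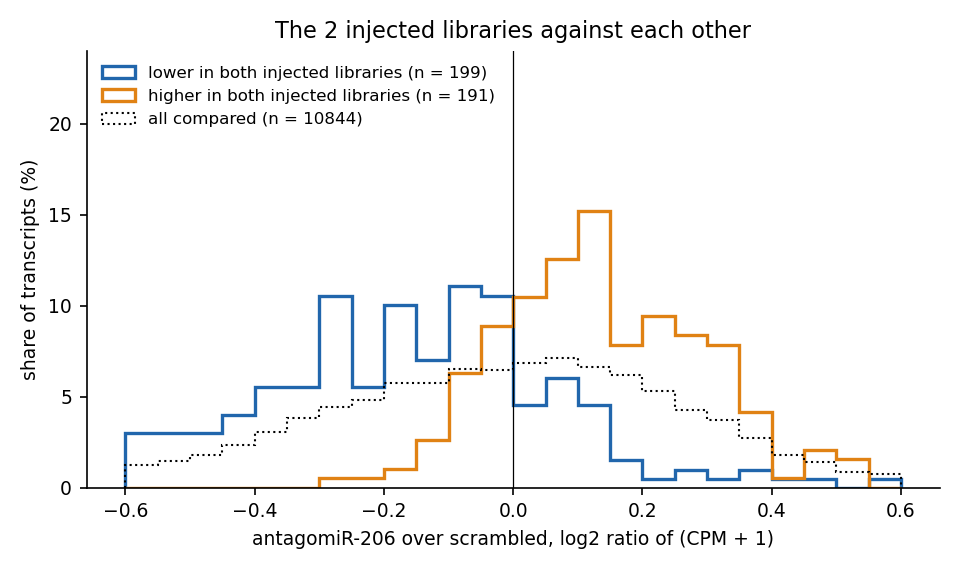
Log2 ratio of (CPM + 1) of antagomiR-206 over scrambled for the 199 members (blue), the 191 transcripts of the mirrored set (orange) and all 10844 transcripts compared (dotted), as a share of each set. The axis stops at -0.6 and 0.6, the limit that the rule sets for both sets, so the ends of the dotted curve are not drawn. The members lie mostly left of 0, with a median of -0.15, and the mirrored set mostly right of it, with a median of 0.12.

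The identifier numbers were not used by the rule. Ensembl gives new numbers to new gene models, so a high number marks a model added later. Numbers above 40000, a limit set after the values were seen, belonged to 62 of 199 members (31.2%), against 1792 of 10844 transcripts compared (16.5%). The share was 33.3% for members in the lower 5 deciles of level, against 17.9% of all transcripts there, and 26.2% in the upper 5, against 15.2%. In the mirrored set it was 12.6%, and among the 248 transcripts set apart as lower in the antagomiR-206 library it was 36.7%. Gene models cannot be treated as independent draws, and no test of these shares was made.

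Of the 199 members, 0 shared all 3 counts with another transcript, where 26 of the 10844 compared did. Such rows were rare over all, so nothing is read from the 0. Consecutive identifier numbers occurred in 3 pairs of members. One was the pair of ranks 5 and 6. In another, rank 88 had 4.73 CPM with antagomiR-206 and 4.68 CPM with scrambled, against 8.67 CPM non-injected, and rank 65 had 4.85 and 4.78 CPM, against 9.12 CPM non-injected. These 2 were close in level in every library. In the third pair the levels differed: rank 132 had 4.04 and 4.13 CPM, against 7.13 CPM non-injected, and rank 131 had 61.0 and 61.8 CPM, against 98.3 CPM non-injected. Only directly consecutive numbers among the members were looked for. Such pairs were not counted over all transcripts compared, so nothing is read from their number. Among the abundant members, ranks 11, 20, 138 and 139 had close but not consecutive numbers. So did ranks 29 and 41, and ranks 99 and 137. Whether any of these are separate units cannot be read from the numbers.

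The edge of the group was crowded. On the scale with 1 CPM added, 78 members had a smaller drop under 1.6-fold, and 178 transcripts with injected libraries within the limit missed the rule at 1.4- to 1.5-fold. Just inside, 1 member had 4.56 CPM with antagomiR-206 and 4.68 CPM with scrambled, against 7.53 CPM non-injected. Just outside, 1 transcript had 88.1 CPM with antagomiR-206 and 90.8 CPM with scrambled, against 137 CPM non-injected. At the other limit, 16 members had injected libraries 1.4- to 1.5-fold apart, and 8 transcripts lower in both were left out at 1.5- to 1.6-fold apart.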

How the data were processed

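The study measured messenger RNA in 3 somite libraries, made with an Illumina mRNA kit and read from both ends at 50 nt on 1 lane each, per the labels' protocols. The authors deposited whole-number counts per Ensembl transcript identifier, which were treated as raw counts because every value was whole and the column totals differed. No aligner, counting tool, genome build, annotation release or strand setting is given in the sources used here. Columns were matched to samples by the letters of their titles.

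Effective library sizes came from TMM (edgeR 4.0.16, R 4.3.3) over all transcripts, with factors of 1.05 (antagomiR-206), 0.995 (scrambled) and 0.957 (non-injected). Ratios use log2(CPM + 1). Intervals of ratios (exact) and of shares (Wilson) were computed with scipy 1.17.1 at 95% and cover counting error only. They treat every count as a separate draw. PCR copies are not separate molecules, so the intervals may be too narrow. A count of 0 was taken to allow 3 counts, or 0.173 CPM for antagomiR-206, 0.149 CPM for scrambled and 0.171 CPM for non-injected somites.

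The members and lists were chosen with earlier results of these data known. Members were named by the smaller of their 2 drops, the first 2 by identifier and others by rank; the abundant members, the edge cases, the consecutive pairs and the near-identical pair were chosen after their values were seen. Gene lists by symbol were not run, since no identifier matched. The selection was run on simulated counts with counting error only, with 2- and 3-fold drops in transcripts well above the filter. Smaller drops, drops in low transcripts and variation between libraries were not simulated. Alternatives were DESeq2 (1.42.0) size factors, upper quartile and total count scaling, other pseudocounts, filters and thresholds.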

Additional observations from a re-analysis of the deposited data

How the results depend on the processing

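No paired analysis was possible because a group is 1 library, and leaving out replicates was likewise impossible. The members were chosen again under each alternative. DESeq2 size factors, upper quartile scaling and total counts gave 203, 241 and 138 members, of which 199, 199 and 134 were among the reported 199. Total counts moved the median log2 ratio of all transcripts compared to 0.14 for antagomiR-206 and 0.07 for scrambled over non-injected, against 0.01 and 0.02 with TMM. The number of members was 115 with a pseudocount of 5 CPM (108 of the reported ones), 341 with no filter on low values, 308 where the mean had to reach 1 CPM and 22 past 2-fold. Those at least 2-fold lower in both injected libraries, 22 as reported, numbered 13 with 5 CPM added, 48 with no filter, 42 and 12 with means of at least 1 and 10 CPM. A 2-fold threshold put the median log2 ratios of the members at -1.64 for antagomiR-206 and -1.38 for scrambled, by construction. Members lower with antagomiR-206 than with scrambled, 157 of 199 as reported, numbered 92 of 138 with total counts and 90 of 115 with 5 CPM added. The number of members changed too, so these counts are to be read against it. These settings for this count were added after the data were seen. The summed non-injected level of the members, 37044 CPM as reported, was 37190 with DESeq2 size factors, 48038 with upper quartile scaling, 31221 with total counts, 37636 with 0.1 CPM added, 34758 with 5 CPM added, 37525 with no filter, 37481 and 36414 with means of at least 1 and 10 CPM, 5651 past 2-fold and 26879 with a tighter limit between the injected libraries. Numbers of transcripts were held to 1.5 times the reported number, and medians and summed levels to counting error alone. Of 61 recomputed values for the group, 39 stayed within these limits. Some of these were fixed in advance. Counting identical rows once could change nothing, since 0 members shared all 3 counts with another transcript. A 2-fold threshold had to return the same 22 members past 2-fold. The rule also bounds the medians, so the 39 are no measure of robustness. The signs of the ratios over non-injected could not change, since the rule fixes them. In plain CPM, the exact 95% intervals of both ratios lay past 1.5-fold for 87 of the 199, and for the others at least 1 interval reached below 1.5-fold. Depth and nearness to 1.5-fold both bear on that number and were not separated. The same intervals were not counted over all transcripts compared, so the number is a description. Rank 191, with 3945 non-injected counts, had an interval of 1.44 to 1.59 for non-injected over scrambled.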
